A study of Homo sapiens with 42 samples.

Results

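The 7 CDK inhibitor genes of the CIP/KIP family (CDKN1A, CDKN1B and CDKN1C) and the INK4 family (CDKN2A, CDKN2B, CDKN2C and CDKN2D) were followed through 42 poly(A) RNA libraries. They were chosen by symbol from 34318 genes, and all 7 were found. Estimated reads were summed per gene, and the transcripts of CDKN2A and CDKN2B were also read by the protein they encode. Each of 14 groups had 3 libraries, and the groups belong to 5 experiments that perturb RNA polymerase III (Pol III), the enzyme that makes tRNAs and other short RNAs. In HEK293T, a human embryonic kidney line that carries adenovirus E1A and E1B and SV40 large T antigen, an antisense oligonucleotide (ASO) against POLR3G was compared with a scramble ASO. A POLR3G siRNA was compared with a control siRNA, these oligonucleotides all being used at 200 nM for 48 h. At 25 nM for 48 h, the POLR3GL siRNAs siE4, siE6 and siE8 were each compared with another set of control siRNA libraries. MAF1 overexpression was compared with eGFP overexpression at 48 h. POLR3G and POLR3GL encode alternative forms of one Pol III subunit, and MAF1 encodes a repressor of Pol III. THP-1 cells, which derive from a human monocytic leukaemia, were given ML-60218, which inhibits Pol III, at 25 uM for 4 h. Others were given cycloheximide (CHX), which blocks translation, at 10 ug/ml for 4.5 h, or both agents, and cells with DMSO served as the control. All HEK293T cells were transfected, controls included, and the labels describe no stable clones. The change per gene is given as a log2 fold change with its standard error from edgeR's quasi-likelihood test, and a gene is called, or said to have risen or fallen, at a Benjamini-Hochberg adjusted p under 0.05 over all genes tested in that experiment. The unit of level is the normalised read count CPM (scaled to library size and by TMM within an experiment), and only TPM, the transcript share corrected for length, is used to set one gene against another.

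CDK inhibitors hold back the cell cycle in G1. The INK4 proteins (p16, p15, p18 and p19) bind CDK4 and CDK6 and keep them from their D-type cyclins, whereas the CIP/KIP proteins (p21, p27 and p57) bind assembled cyclin-CDK complexes, above all those of CDK2. CDKN1A encodes p21, and CDKN2A also encodes p14ARF, a protein unrelated to p16 in sequence that binds MDM2. In HEK293T the viral proteins E1A and large T antigen bind RB, on which these brakes act.

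CDKN2A makes separate products, and they did not move together. The gene lies at chr9:21967753-21995301 on the minus strand (GRCh38), and p16 and p14ARF begin in different first exons and share exon 2. In GENCODE 29 the first coding exon of the main p16 transcript (ENST00000304494) holds 150 coding bases, a whole number of codons. That of the main p14ARF transcript (ENST00000579755) holds 193, which is 1 base over a whole number of codons, so that exon 2 is read in another frame.

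The promoter windows below, 250 bases before to 50 after a RefSeq start, were taken from RefSeq (GRCh38.p14). These starts differ from those of the GENCODE 29 transcripts read here. The main CDKN1B transcript, ENST00000228872, starts at chr12:12717124, and ENST00000304494 starts at chr9:21975098. Most of the CDKN1B and p16 windows therefore lies within those transcripts. The windows are those of the CDKN2A starts listed in RefSeq, of CDKN2B, its neighbour on the same strand, and of CDKN1B. Both CDKN1B and CDKN2B rose with both POLR3G oligonucleotides. So did CDKN2C, by less with the ASO, and its windows are not printed. Capitals mark the motifs searched on both strands, the GC box GGGCGG, the E2F motif GGCGGGAA and the CCAAT box CCAAT, which did not overlap in these windows.
CDKN2A p14ARF start, chr9:21995275-21995574, minus strand: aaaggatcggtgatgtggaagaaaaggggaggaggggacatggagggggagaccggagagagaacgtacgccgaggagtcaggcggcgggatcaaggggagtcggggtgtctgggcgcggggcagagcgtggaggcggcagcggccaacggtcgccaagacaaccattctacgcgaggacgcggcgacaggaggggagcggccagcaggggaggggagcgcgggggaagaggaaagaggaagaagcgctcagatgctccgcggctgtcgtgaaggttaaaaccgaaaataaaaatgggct
CDKN2A p16INK4a start, chr9:21974808-21975107, minus strand: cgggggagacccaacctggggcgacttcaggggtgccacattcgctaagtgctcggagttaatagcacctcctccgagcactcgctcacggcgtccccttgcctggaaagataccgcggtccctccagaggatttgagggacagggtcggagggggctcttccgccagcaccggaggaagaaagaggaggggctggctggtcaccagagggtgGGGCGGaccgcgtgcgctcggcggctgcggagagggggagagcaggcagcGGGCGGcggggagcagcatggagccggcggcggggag
CDKN2B, chr9:22009256-22009555, minus strand: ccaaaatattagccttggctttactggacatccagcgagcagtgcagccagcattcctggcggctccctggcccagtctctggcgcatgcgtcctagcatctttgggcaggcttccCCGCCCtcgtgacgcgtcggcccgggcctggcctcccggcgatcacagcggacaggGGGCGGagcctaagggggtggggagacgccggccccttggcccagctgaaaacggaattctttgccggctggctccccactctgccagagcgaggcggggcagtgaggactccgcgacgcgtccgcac
CDKN1B, chr12:12717118-12717417, plus strand: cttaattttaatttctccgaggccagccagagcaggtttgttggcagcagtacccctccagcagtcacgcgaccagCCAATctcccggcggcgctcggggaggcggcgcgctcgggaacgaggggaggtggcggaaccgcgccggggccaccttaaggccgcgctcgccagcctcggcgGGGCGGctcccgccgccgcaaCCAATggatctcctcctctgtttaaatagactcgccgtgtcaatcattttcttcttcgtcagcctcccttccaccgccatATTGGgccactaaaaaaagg

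The window labelled p14ARF start held none of the 3 motifs. Its source names only the gene CDKN2A. The p14ARF label was given here, although no transcript counted as p14ARF starts inside the window. The window lies upstream of the main p14ARF transcripts of GENCODE 29, ENST00000579755 and ENST00000530628. These start at chr9:21994624 and chr9:21994411, and the window does not hold the bases just before those starts. ENST00000498628, which starts inside the window at chr9:21995301, was not counted as p14ARF. The window at the p16 start held 2 GC boxes, that of CDKN2B held 2, one of them on the opposite strand, and that of CDKN1B held 1 GC box and 3 CCAAT boxes. Among all 35097 RefSeq windows, 44.9% held a GC box, 3.15% the E2F motif and 34.6% a CCAAT box. Windows were found for 6 of the 7 members. Of the CDKN2C windows, that at chr1:50968456-50968755 held 6 GC boxes and 1 E2F motif. The window at chr1:50969995-50970294 held 1 GC box and 1 CCAAT box, and that at chr1:50960495-50960794 held none of the motifs.

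Library totals ranged from 32705684 to 52568088 estimated reads, and replicates of a group correlated at 0.988 to 0.993 (Pearson's r on log2 CPM). The labelled targets were checked first. POLR3G was 2.81-fold lower with the POLR3G ASO and 2.38-fold lower with the POLR3G siRNA than with their controls, and POLR3GL fell by 3.56 with siE4, 3.35 with siE6 and 3.71 with siE8 on the log2 scale. MAF1 rose by 6.22 ± 0.06 on its overexpression. MAF1 also fell by 2.34 ± 0.05 with the POLR3G siRNA, to 9.84 ± 0.68 CPM against 49.96 ± 1.30 CPM with control siRNA (SD, n = 3 each), POLR3GL fell by 0.44 with the POLR3G ASO and by 0.57 with the POLR3G siRNA, and POLR3G fell with siE4, siE6 and siE8, by 0.56 to 0.93. The 12 monocyte markers summed to 4214 to 6436 CPM in THP-1 and 44.4 to 79.9 CPM in HEK293T, and the 10 HEK293T markers to 2.64 to 9.11 CPM in THP-1 and 722 to 3005 CPM in HEK293T.

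All 7 members had reads in each of the 10 HEK293T groups, and 5 had reads in each of the 12 THP-1 libraries. In bulk RNA, fewer cells of a kind and less RNA per cell cannot be told apart. Across the 30 HEK293T libraries the median level was 236 TPM for CDKN2A, 76.9 TPM for CDKN2C (p18), 47.0 TPM for CDKN1B (p27), 29.4 TPM for CDKN1A, 8.83 TPM for CDKN2B (p15), 6.49 TPM for CDKN2D (p19) and 4.22 TPM for CDKN1C (p57). CDKN2A stood first and CDKN1C last in each of the 10 HEK293T groups, but much of the TPM of CDKN2A came from short transcripts. ENST00000530628 held 29.4% of its TPM and 20.7% of its reads, and ENST00000578845 held 21.1% of its TPM and 14.04% of its reads. The ranges of CDKN2D and CDKN1C overlapped with the POLR3G ASO and with control siRNA at 25 nM, those of CDKN2B and CDKN1A with the POLR3G ASO, and those of CDKN1A and CDKN1B with siE6, MAF1 and eGFP, so that those neighbours are not ordered. In the 12 THP-1 libraries CDKN2C led with a median of 197 TPM, and CDKN1A followed at 39.0 TPM, CDKN1B at 19.5 TPM, CDKN2D at 11.9 TPM and CDKN1C at 2.34 TPM. The ranges of CDKN2D and CDKN1B overlapped in the libraries given ML-60218 with CHX.

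CDKN2A had 0 reads in 10 of the 12 THP-1 libraries, with 7 and 2 reads in the others, and CDKN2B had 0 reads in 11, with 1 read in the other. A count of 0 allows up to 3 reads, at most 0.0876 CPM in a library. The lowest HEK293T libraries, at 50.9 CPM for CDKN2A and 14.8 CPM for CDKN2B, were at least 581-fold and 169-fold higher than that limit. Neighbours on chromosome 9 shared the pattern in part. MTAP, which encodes an enzyme of methionine salvage and lies beside CDKN2A at chr9:21802543-21937651, had a median of 1.31 CPM in THP-1 and 103 CPM in HEK293T. KLHL9 had a median of 0 CPM in THP-1 and 114 CPM in HEK293T, whereas HACD4, the next gene listed beyond it, had 153 CPM in THP-1 and 0.49 CPM in HEK293T. FOCAD was at 48.3 CPM in THP-1 and 83.3 CPM in HEK293T. The files hold no DNA measurement, so a missing locus and a silent one cannot be told apart.

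**Figure D1:**
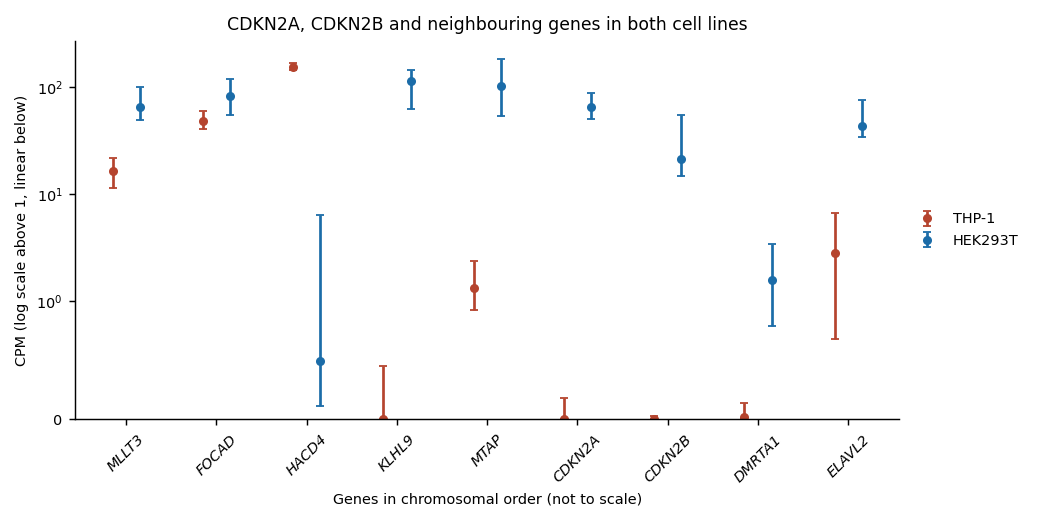
Median CPM (points) and range over libraries (bars) of CDKN2A, CDKN2B and 7 neighbouring genes in the order in which they lie on chromosome 9, for 12 THP-1 libraries (red) and 30 HEK293T libraries (blue), on an axis that is logarithmic above 1 and linear below. KLHL9, CDKN2A, CDKN2B and DMRTA1 lie near 0 in THP-1 and MTAP at 1.31 CPM, while FOCAD and HACD4 stand at 48.3 and 153 CPM. DMRTA1 is low in HEK293T too, with a median of 1.55 CPM.

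With the POLR3G ASO, CDKN2B, CDKN1B and, by less, CDKN2C rose. CDKN2B had 53.4, 53.4 and 54.4 CPM with the ASO, against 21.3, 21.4 and 22.5 CPM with scramble ASO. The groups lay far apart, and the log2 fold change was 1.31 ± 0.04 (adjusted p = 3.23e-08), a 2.47-fold difference. CDKN1B, whose p27 protein restrains cyclin E-CDK2, had 103, 94.4 and 105 CPM with the ASO, against 58.0, 57.8 and 57.7 CPM with scramble ASO (log2 fold change 0.80 ± 0.04, adjusted p = 4.24e-07). CDKN2C was at 77.2 ± 1.5 CPM with the ASO and 71.0 ± 1.8 CPM with scramble ASO (SD, n = 3 each; log2 fold change 0.12 ± 0.03, adjusted p = 0.00569). So 3 of the 7 members rose and 0 fell, where 34.4% of the 17098 genes tested rose and 34.1% fell. The median over the members was a log2 fold change of 0.12, and over all genes it lay between -0.021 and 0.0032 in each of the 9 comparisons of 2 groups. CDKN2A did not pass the test (0.01 ± 0.04), nor did CDKN2D (0.06 ± 0.12) or CDKN1C (0.69 ± 0.47), whose libraries ranged from 2.38 to 2.68 CPM with the ASO and from 0.36 to 2.51 CPM with scramble ASO. CDKN1A was at 26.4 ± 1.8 CPM with the ASO and 29.1 ± 1.8 CPM with scramble ASO (-0.14 ± 0.06, adjusted p = 0.0701). It was called at -0.18 with no filter on low counts (adjusted p = 0.0258), at -0.15 with all HEK293T libraries in the fit (adjusted p = 0.0416), at -0.19 without scramble ASO replicate 2 (adjusted p = 0.0406) and at -0.20 without POLR3G ASO replicate 1 (adjusted p = 0.0239). Of 12 alternatives, the replicate block of the last section included, 7 left CDKN1A uncalled. The values of all 12 ran from -0.20 to -0.07 (adjusted p of 0.0236 to 0.395).

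The partners and regulators of these genes moved in both directions with the ASO. Of 12 G1 cyclin and CDK genes 3 rose and 5 fell, among them CCND2, a D-type cyclin, at 204 CPM with the ASO and 291 CPM with scramble ASO. Of 16 tested genes for RB proteins, E2Fs and their partners 6 rose and 7 fell, with RBL2, which encodes the RB relative p130, at 74.6 CPM with the ASO and 108 CPM with scramble ASO. KLF6, a zinc-finger factor that activates CDKN1A, rose to 95.3 CPM with the ASO, against 46.5 CPM with scramble ASO, and was one of 5 activators of CDK inhibitor genes that rose while 8 of the 17 fell. Of 16 repressors 5 rose and 6 fell, and EZH2, the methyltransferase of Polycomb complex 2 that silences CDKN2A and CDKN2B, was at 63.5 CPM with the ASO and 89.1 CPM with scramble ASO. Of the 8 monocyte markers tested 7 rose and 1 fell, and the 12 summed to 76.3 to 79.9 CPM with the ASO and 54.9 to 56.9 CPM with scramble ASO, with 2 of the 12 at 0 reads in each group, and their part in the result was not tested.

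With the POLR3G siRNA 4 of the 7 members rose and 1 fell, where 36.8% of the 15423 genes tested rose and 38.1% fell. CDKN1B rose most, with 153, 149 and 144 CPM with the siRNA, against 67.8, 65.2 and 67.7 CPM with control siRNA (log2 fold change 1.16 ± 0.03, adjusted p = 2.53e-09). CDKN2B had 50.9, 50.6 and 50.8 CPM with the siRNA, against 27.1, 26.4 and 26.8 CPM with control siRNA (0.92 ± 0.03, adjusted p = 6.44e-09). CDKN2C, whose p18 protein binds CDK6 in particular, had 106, 110.4 and 103 CPM with the siRNA, against 59.7, 57.5 and 57.5 CPM with control siRNA (0.87 ± 0.03, adjusted p = 2e-08). In each of these 3 genes the groups did not overlap. CDKN2A rose to 82.8 ± 1.0 CPM with the siRNA, against 52.5 ± 2.0 CPM with control siRNA (0.66 ± 0.03, adjusted p = 1.03e-07). CDKN1A was the one member that fell, with 18.3, 16.8 and 19.3 CPM with the siRNA, against 23.7, 23.3 and 24.1 CPM with control siRNA (-0.39 ± 0.05, adjusted p = 0.000134). CDKN2D was at 3.57 ± 0.25 CPM with the siRNA and 3.62 ± 0.04 CPM with control siRNA, and CDKN1C was at 1.89 ± 1.42 CPM with the siRNA and 1.72 ± 1.23 CPM with control siRNA. Neither passed the test. The median over the 7 members was 0.66.

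Among the partners, 8 of 12 G1 cyclin and CDK genes rose with the POLR3G siRNA and 1 fell, with CCNA2, the S-phase cyclin A, at 262 CPM with the siRNA and 153 CPM with control siRNA. RB1, the pocket protein that CDK4 and CDK6 phosphorylate, fell to 53.6 CPM with the siRNA, against 127 CPM with control siRNA (2.37-fold lower, adjusted p = 7.02e-10), and E2F5 fell by 1.13 ± 0.04. Counted over the 16 RB and E2F genes tested, 7 rose and 7 fell. BMI1, a Polycomb repressor of CDKN2A, rose to 461 CPM with the siRNA, against 171 CPM with control siRNA, one of 8 of 16 repressors that rose while 5 fell. MTAP, the neighbour of CDKN2A, rose by 1.60 ± 0.02 on the log2 scale, and 5 of the 7 tested neighbours of CDKN2A and CDKN2B rose while 1 fell. Of 10 HEK293T markers 8 rose and 2 fell, their sum being 2894 to 3005 CPM with the siRNA and 1144 to 1160 CPM with control siRNA, and the part of this, and of the lower MAF1, in the members' changes was not tested.

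The change with the ASO minus the change with the siRNA was estimated in 1 model of the 12 libraries concerned, each change having its own controls. It was called for 5 of 7 members, with 2 higher, where 33.8% of the 17489 genes tested were, and 3 lower, where 33.0% were. CDKN2C differed most, by -0.78 ± 0.04 (adjusted p = 3.72e-09), followed by CDKN2A at -0.68 ± 0.05, CDKN1B at -0.39 ± 0.05 and CDKN2B at 0.35 ± 0.04. CDKN1A differed by 0.21 ± 0.09 (adjusted p = 0.0436). That call was lost in 10 of the alternatives, at 0.155 to 0.221 (adjusted p between 0.0592 and 0.132), 9 of which left out 1 library.

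**Figure D2:**
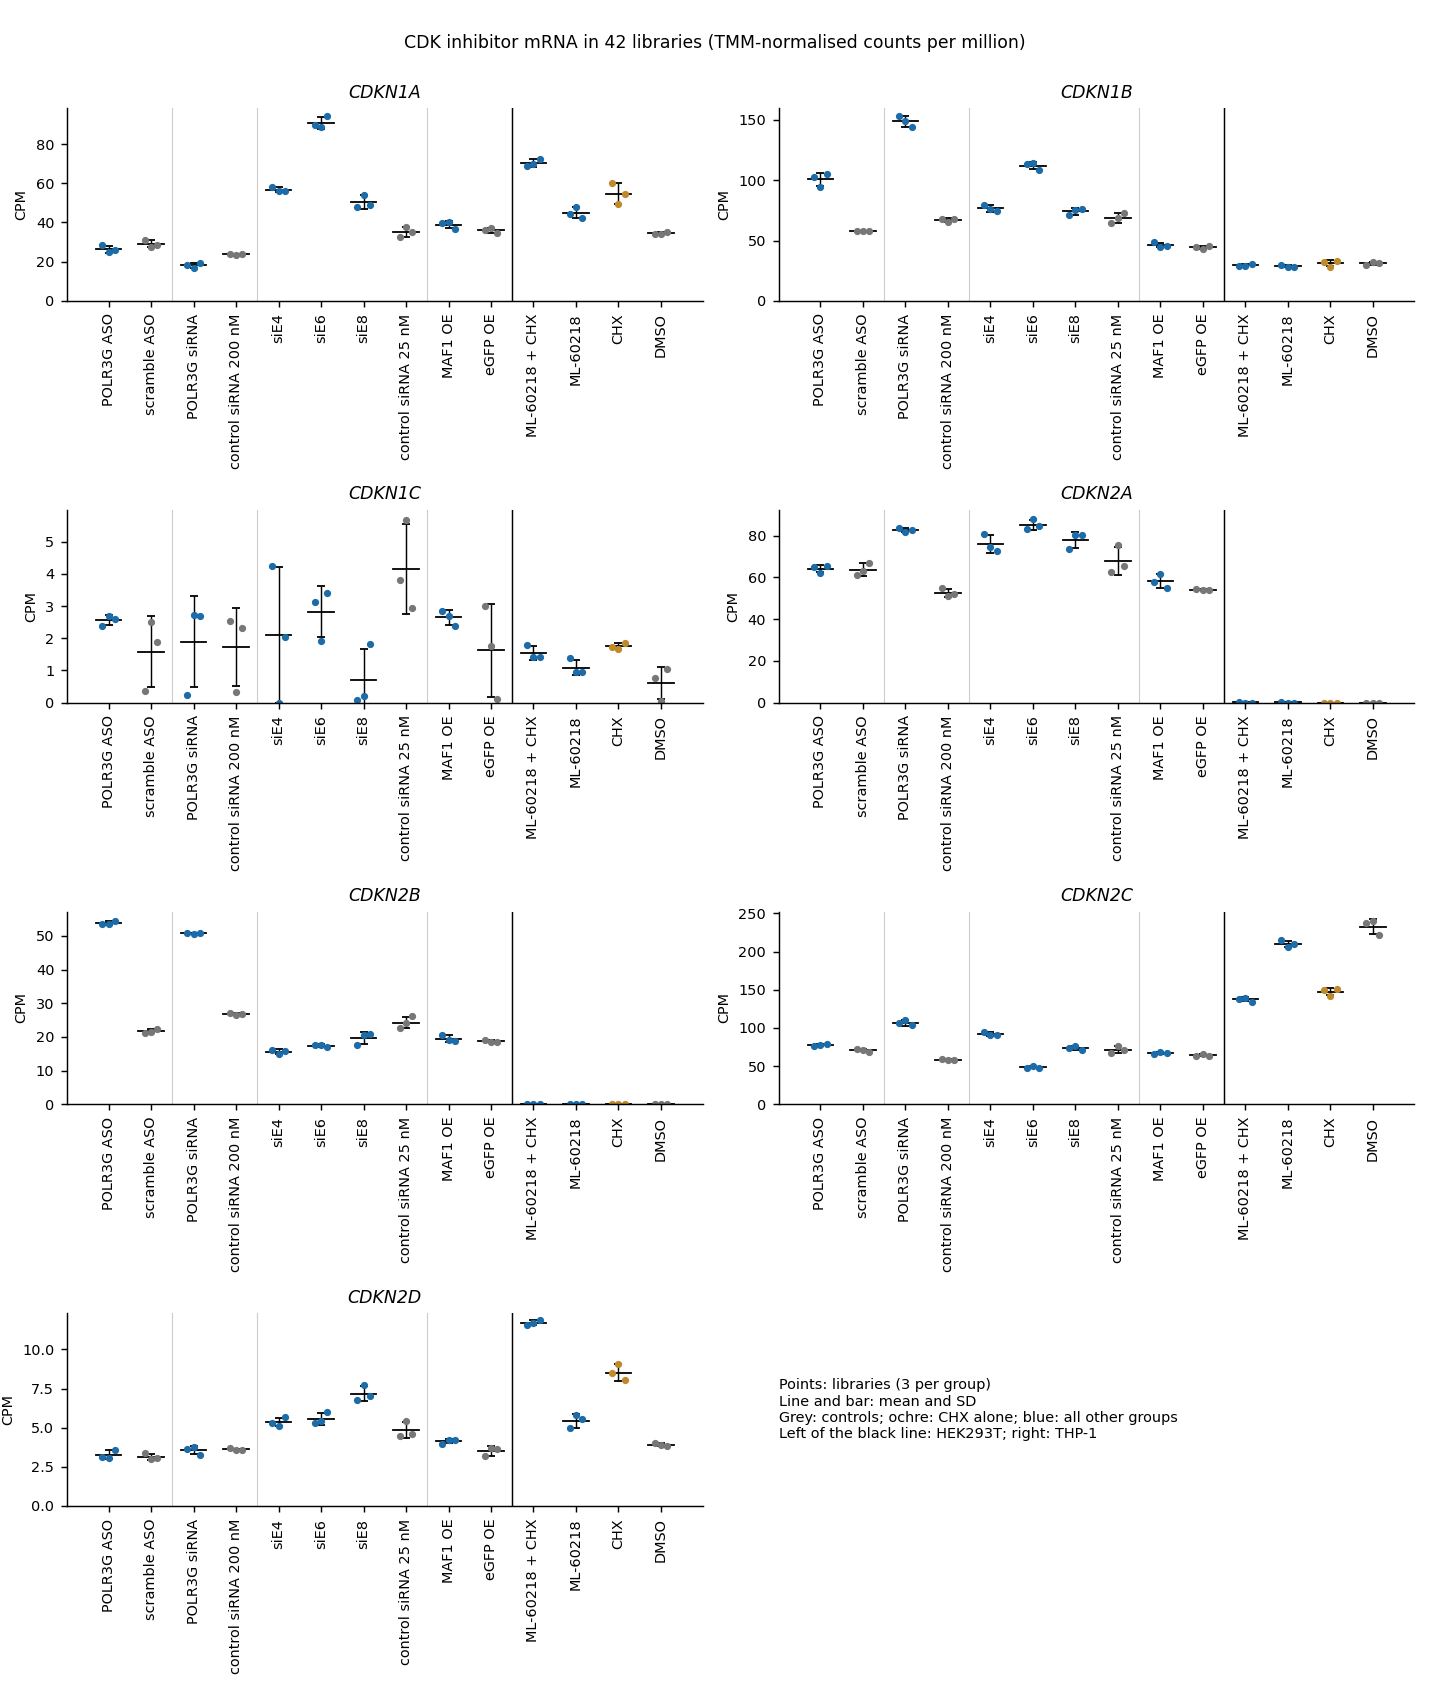
CPM of each CDK inhibitor gene (y axis) in every library (points, 3 per group), with group mean and SD, by group (x axis), HEK293T left of the black line and THP-1 right of it. CDKN1B, CDKN2B and, by less with the ASO, CDKN2C stand above their controls with both POLR3G oligonucleotides. CDKN1A stands highest with siE6 at 88.7 to 94.4 CPM, and CDKN2A and CDKN2B lie at or near 0 in THP-1, with at most 7 reads in a library.

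Read by transcript class, the rise of CDKN2A with the POLR3G siRNA was that of p14ARF. The p14ARF transcripts had 55.7, 53.6 and 55.6 CPM with the siRNA, against 27.9, 24.8 and 26.1 CPM with control siRNA (log2 fold change 1.06 ± 0.04, adjusted p = 4.24e-08). The p16 transcripts had 15.7, 15.0 and 14.1 CPM with the siRNA, against 17.4, 14.7 and 14.9 CPM with control siRNA. These groups overlapped, and the value was -0.07 ± 0.08 (adjusted p = 0.442). As a share of the gene's reads, p14ARF made up 65.4% to 67.3% with the siRNA and 48.8% to 50.9% with control siRNA. With the POLR3G ASO p14ARF was at 32.3 ± 0.9 CPM and with scramble ASO at 32.7 ± 0.9 CPM (-0.02 ± 0.04), and the ASO change minus the siRNA change was -1.11 ± 0.06 (adjusted p = 2.01e-09). The p16 transcripts fell slightly with the ASO, to 12.4 ± 0.7 CPM, against 14.6 ± 1.2 CPM with scramble ASO (-0.24 ± 0.08, adjusted p = 0.0213). That call was lost without POLR3G ASO replicate 3 (adjusted p = 0.0766) and without scramble ASO replicate 3 (adjusted p = 0.0733). The remaining transcripts rose by 0.25 ± 0.07 with the ASO and by 0.29 ± 0.08 with the siRNA. Most of their reads in these groups lay on ENST00000578845, which GENCODE 29 lists as protein-coding.

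CDKN2B was read mostly as the p15 transcript ENST00000276925, which held 91.3% of its HEK293T reads. It rose by 1.26 ± 0.04 with the ASO, at 47.1, 48.9 and 45.6 CPM against 19.7, 19.1 and 20.3 CPM with scramble ASO, and by 0.95 ± 0.04 with the siRNA, at 46.9 ± 0.9 CPM against 24.3 ± 0.8 CPM with control siRNA. The p10 transcript, a shorter form of the same gene, had 5.93, 4.10 and 7.56 CPM with the ASO, against 0, 2.18 and 0.86 CPM with scramble ASO (2.52 ± 0.69, adjusted p = 0.00954), a value that was 1.94 without scramble ASO replicate 1 and 3.74 without replicate 2. With the siRNA p10 was at 3.24 ± 1.02 CPM and with control siRNA at 2.09 ± 0.50 CPM (0.63 ± 0.25, adjusted p = 0.0487), a call lost without any 1 of 4 libraries (adjusted p of 0.0841 to 0.196), these being replicates 1 and 2 of either group, and the value was 0.38 without POLR3G siRNA replicate 2. The division of reads between classes was estimated by the authors' quantifier, and it is less sure than the gene sums, since 62.4% of the 31-base words of p14ARF transcripts also occur in p16 transcripts. Between CDKN2A and CDKN2B 70 such words were shared, 1.57% of those of CDKN2A and 1.73% of those of CDKN2B. The antisense gene CDKN2B-AS1, which overlaps both, was not analysed here. The labels name a stranded kit and do not say whether quantification used the strand.

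**Figure D3:**
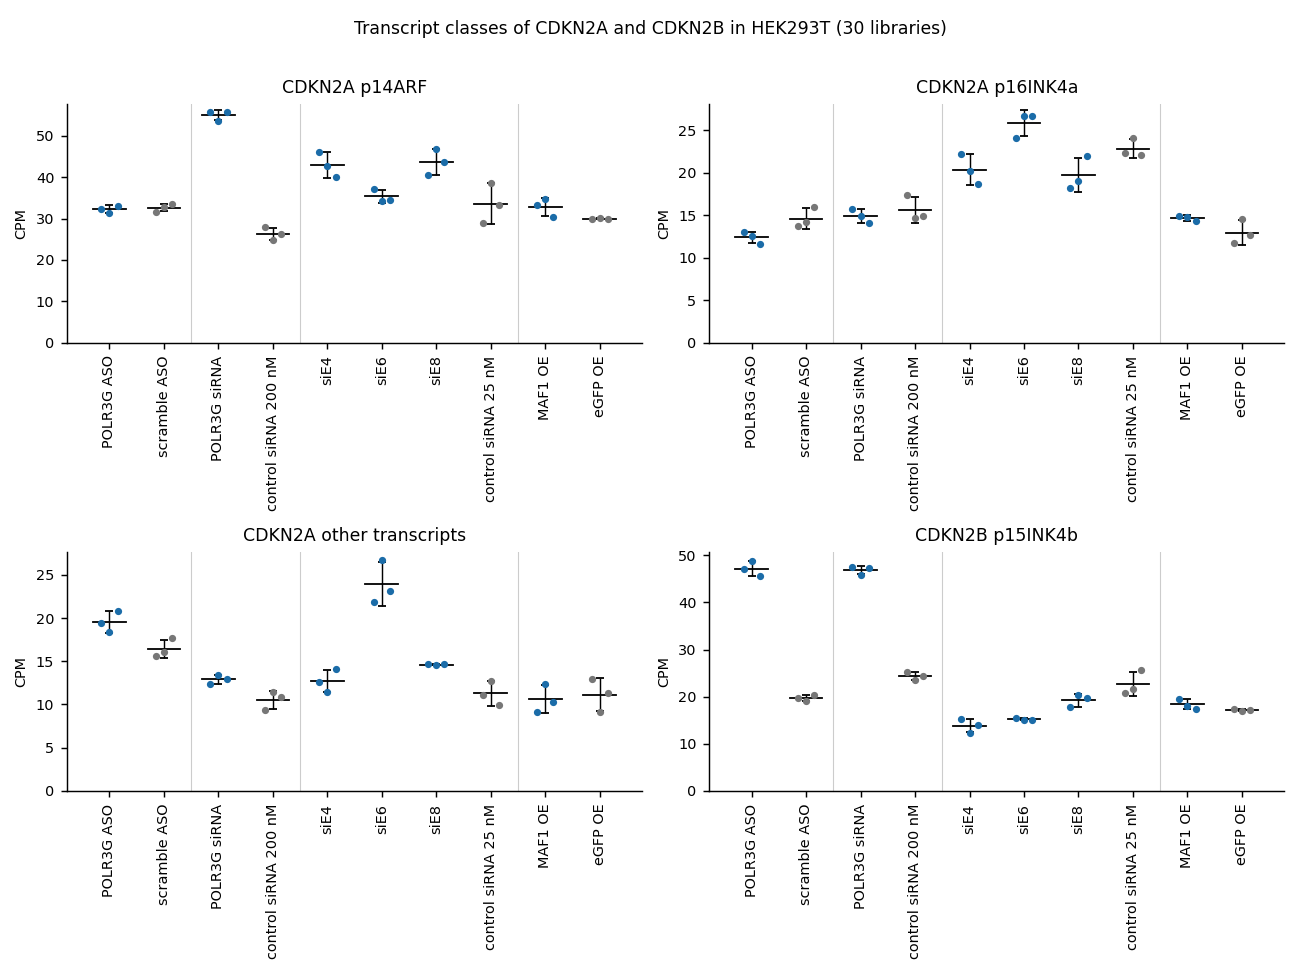
CPM (y axis) of p14ARF, p16INK4a and other transcripts of CDKN2A and of the p15INK4b transcript of CDKN2B in each HEK293T library (points), with group mean and SD, by group (x axis). The p14ARF points with the POLR3G siRNA lie at 53.6 to 55.7 CPM, against 24.8 to 27.9 CPM with control siRNA, while the p16INK4a points of the same groups overlap.

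The POLR3GL siRNAs raised CDKN1A and lowered CDKN2B in each case. A difference among the siRNAs was called for 5 of 7 members, both of these included, where 80.9% of all genes were called. CDKN1A had 58.2, 56.0 and 56.1 CPM with siE4, 89.7, 88.7 and 94.4 CPM with siE6 and 48.0, 54.3 and 48.9 CPM with siE8, against 32.7, 37.7 and 35.2 CPM with control siRNA. No siRNA library reached down to the control range, and the log2 fold changes were 0.69 ± 0.06 with siE4, 1.37 ± 0.06 with siE6 and 0.52 ± 0.06 with siE8 (adjusted p of 4.75e-07, 5.67e-10 and 5.84e-06). CDKN2B had 16.1, 14.8 and 15.9 CPM with siE4, 17.6, 17.7 and 16.9 CPM with siE6 and 17.7, 20.5 and 21.0 CPM with siE8, against 22.5, 24.2 and 26.1 CPM with control siRNA. It fell by 0.63 ± 0.07 with siE4, 0.48 ± 0.07 with siE6 and 0.30 ± 0.07 with siE8. These 3 comparisons share their control libraries, so a high or low control value enters all of them.

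CDKN1B rose with siE6, at 112 ± 3 CPM against 68.7 ± 3.9 CPM with control siRNA (0.71 ± 0.05, adjusted p = 3.71e-08). With siE4 it was at 76.7 ± 2.7 CPM (0.16 ± 0.05, adjusted p = 0.0133), a call lost without control replicate 1 (adjusted p = 0.0623) and without siE4 replicate 1 (adjusted p = 0.0619). With siE8 it was at 74.2 ± 2.8 CPM (adjusted p = 0.0671), called at 0.15 without control replicate 3 (adjusted p = 0.0179) at 0.14 without siE8 replicate 1 (adjusted p = 0.0331) and at 0.12 with all HEK293T libraries in the fit (adjusted p = 0.0284). CDKN2C went in opposite directions. It rose with siE4, at 95.0, 90.7 and 90.4 CPM (0.37 ± 0.05, adjusted p = 3.39e-05), and fell with siE6, at 47.7, 50.4 and 47.4 CPM (-0.56 ± 0.05, adjusted p = 5.51e-07), against 67.4, 76.5 and 70.4 CPM with control siRNA. With siE8 CDKN2C was at 73.6 ± 2.5 CPM, which overlapped the control range (0.04 ± 0.05). CDKN2D rose with siE8, at 6.80, 7.70 and 6.995 CPM against 4.44, 5.40 and 4.62 CPM with control siRNA (0.57 ± 0.10, adjusted p = 0.000317). It did not pass the test with siE4 (0.15 ± 0.10) or siE6 (0.21 ± 0.10, adjusted p = 0.0929), but was called with siE6 at 0.30 without control replicate 2 (adjusted p = 0.0269) and with all HEK293T libraries in the fit (adjusted p = 0.0473).

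CDKN2A was at 85.2 ± 2.4 CPM with siE6, 78.0 ± 4.0 CPM with siE8 and 76.0 ± 4.4 CPM with siE4, against 67.7 ± 6.9 CPM with control siRNA. It was called with siE6 (0.33 ± 0.07, adjusted p = 0.000752) and siE8 (0.20 ± 0.07, adjusted p = 0.0201) and not with siE4 (0.17 ± 0.07, adjusted p = 0.0515). The siE8 call was lost without control replicate 1 or 3 and without siE8 replicate 2 or 3 (adjusted p of 0.0652 to 0.09), and siE4 was called with DESeq2 (adjusted p = 0.0207), under all 5 other alternatives that keep every library (adjusted p of 0.0157 to 0.0457), at 0.25 without control replicate 2 (adjusted p = 0.00324) and at 0.20 without siE4 replicate 3 (adjusted p = 0.0451). Its classes differed by siRNA. The p14ARF transcripts rose by 0.35 ± 0.09 with siE4 and 0.38 ± 0.09 with siE8, and were at 0.07 ± 0.09 with siE6, and the remaining transcripts rose by 1.09 ± 0.10 with siE6, to 23.9 ± 2.5 CPM, and by 0.37 ± 0.10 with siE8, to 14.6 ± 0.1 CPM, against 11.3 ± 1.4 CPM with control siRNA. The p16 transcripts fell with siE8 (-0.21 ± 0.08, adjusted p = 0.042), a call lost with no filter on low counts (adjusted p = 0.0539) and without any 1 of 5 libraries, all 3 controls and siE8 replicates 1 and 2 (adjusted p of 0.0551 to 0.16). The difference among the 3 siRNAs was called for the remaining transcripts (adjusted p = 3.42e-06), p16 (adjusted p = 0.000987) and p14ARF (adjusted p = 0.0131, and 0.0599 and 0.055 without siE6 replicate 2 or 3). The p15 transcript fell with each siRNA, by 0.71 ± 0.09 with siE4, 0.58 ± 0.09 with siE6 and 0.24 ± 0.09 with siE8, the last losing its call without control replicate 3, siE8 replicate 1 or siE8 replicate 3 (adjusted p of 0.058 to 0.183), at -0.14 without control replicate 3. CDKN1C was low and variable, with 0.079, 0.20 and 1.81 CPM with siE8, 3 to 68 reads in a library, against 3.82, 5.69 and 2.94 CPM with control siRNA (-2.56 ± 1.02, adjusted p = 0.0459). That call was lost with DESeq2 (adjusted p = 0.117), with a length offset (adjusted p = 0.0666) and without any 1 of 5 libraries, siE8 replicates 1 and 2 and all 3 controls (adjusted p of 0.0596 to 0.136), and the value was -4.87 without siE8 replicate 3.

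In sum over members, siE4 raised 3 and lowered 1 (26.2% and 28.7% of the 15573 genes tested), siE6 raised 3 and lowered 2 (31.2% and 31.8%), and siE8 raised 3 and lowered 2 (29.1% and 28.6%), with medians of 0.16, 0.21 and 0.11. A test of the difference among siE4, siE6 and siE8 was called for 5 of 7 members, CDKN1A, CDKN1B, CDKN2B, CDKN2C and CDKN2D, where 80.9% of all genes were called. Among called members the largest pairwise difference was 0.92 for CDKN2C and 0.85 for CDKN1A on the log2 scale. That of CDKN1C was 2.00 and did not pass (adjusted p = 0.202), and that of CDKN2A (0.16) did not pass (adjusted p = 0.0803). With a length offset the CDKN2B difference lost its call (0.18, adjusted p = 0.193) and that of CDKN2A gained one (0.22, adjusted p = 0.0195). CDKN2A was also called with all HEK293T libraries in the fit (adjusted p = 0.0238) and without siE4 replicate 1 (adjusted p = 0.0431), and CDKN1C at 2.16 without siE4 replicate 2 (adjusted p = 0.0397) and at 4.31 without siE8 replicate 3 (adjusted p = 0.0258).

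**Figure D4:**
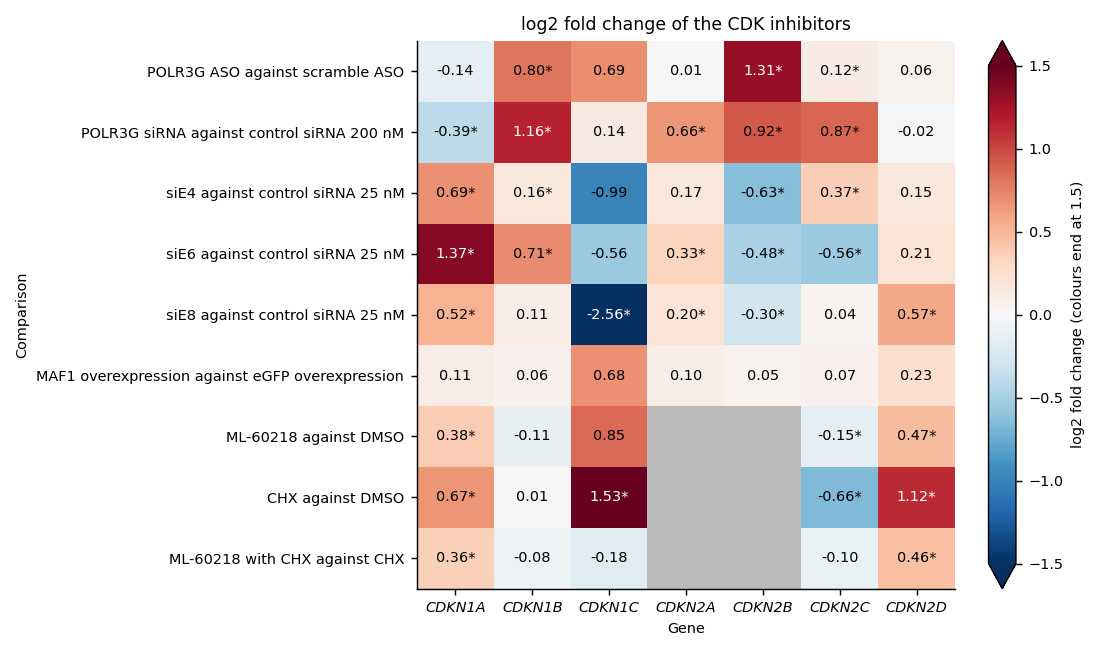
Log2 fold change of each CDK inhibitor gene (columns) in each comparison of 2 groups (rows), printed in the cells and coloured from blue (lower) to red (higher), with an asterisk for an adjusted p under 0.05 and grey for genes not tested. CDKN1A is lower with the POLR3G siRNA at -0.39 and higher with the POLR3GL siRNAs at 0.52 to 1.37, and CDKN2B runs the other way in those 4 comparisons. Colours end at 1.5.

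G1 cyclin, CDK and pocket protein genes also changed with the POLR3GL siRNAs, each value below being against control siRNA. A difference among the siRNAs was called for 11 of 12 G1 cyclin and CDK genes. It was called for 14 of 16 RB and E2F genes, where 80.9% of all genes were called. With siE8, CDK6, the kinase bound by INK4 proteins, fell to 37.0 CPM, against 190 CPM with control siRNA (log2 fold change -2.36 ± 0.09, adjusted p = 2.1e-10), CCND2 fell by 1.67 ± 0.08, and RB1 fell to 41.8 CPM, against 120 CPM with control siRNA (-1.53 ± 0.04). E2F1 rose by 0.92 ± 0.05 with siE8. With siE6, MNAT1 and CCNH, subunits of the CDK-activating kinase, fell by 1.18 ± 0.06 and 0.93 ± 0.06, and with siE4 CCNE1, cyclin E1, fell by 1.19 ± 0.05. Of the 12 G1 cyclin and CDK genes 7 rose and 4 fell with siE4, 4 rose and 5 fell with siE6, and 3 rose and 6 fell with siE8. Of 17 activators of CDK inhibitor genes 6 rose and 5 fell with siE4, 5 rose and 3 fell with siE6, and 8 rose and 4 fell with siE8. EGR1, an immediate early factor, rose by 1.40 ± 0.09 with siE4 and 1.21 ± 0.09 with siE6. MYC, which represses CDKN1A and CDKN2B, fell with each siRNA, to 137 CPM with siE4, 134 CPM with siE6 and 135 CPM with siE8, against 190 CPM with control siRNA.

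CDKN1A was also read by start site, a split chosen after its values were seen and therefore given with no test. Its main transcript, ENST00000244741, starts at chr6:36678658 and held 88.0% of the HEK293T reads, and 3 transcripts start upstream of it, between 36676460 and 36676528. The upstream transcripts took 211, 168 and 309 reads with siE4, 183, 190 and 54 reads with siE6 and 245, 346 and 284 reads with siE8, against 8, 11 and 30 reads with control siRNA. All 9 siRNA libraries were above the controls in reads. As a share of the gene they were at 7.9% to 13.2% with siE4, 1.4% to 5.3% with siE6 and 13.5% to 18.3% with siE8, against 0.6% to 2.1% with control siRNA, so that the siE6 range overlapped that of the controls. The share was also high in the overexpression experiment, at 7.1% to 14.6% with MAF1 and 10.9% to 15.6% with eGFP, a control. It was 4.1% to 5.6% with the POLR3G ASO and 1.5% to 2.0% with scramble ASO, and at most 1.4% in a THP-1 library.

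MAF1 overexpression called 0 of the 7 members with edgeR, and DESeq2 also called 0, while 3 of the 7 had an unadjusted p under 0.05. Of all 15543 genes tested edgeR called 0.0322% higher and 0.00643% lower, and DESeq2 called 32 genes. CDKN1A was at 38.8 ± 1.8 CPM with MAF1 and 36.0 ± 1.2 CPM with eGFP (log2 fold change 0.11 ± 0.05), CDKN2A at 58.1 ± 3.4 CPM with MAF1 and 54.1 ± 0.4 CPM with eGFP (0.10 ± 0.04), and CDKN2D at 4.14 ± 0.15 CPM with MAF1 and 3.52 ± 0.30 CPM with eGFP (0.23 ± 0.10). CDKN1B was at 0.06 ± 0.04, CDKN2B at 0.05 ± 0.05 and CDKN2C at 0.07 ± 0.03. The adjusted p of the members lay between 0.511 and 0.763.

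In THP-1, ML-60218 raised CDKN1A and CDKN2D and lowered CDKN2C. CDKN1A had 44.5, 48.0 and 42.4 CPM with ML-60218, against 34.3, 34.2 and 35.0 CPM with DMSO (log2 fold change 0.38 ± 0.06, adjusted p = 0.00149). CDKN2D, whose p19 protein is an INK4 inhibitor, had 4.95, 5.83 and 5.53 CPM with ML-60218, against 4.0, 3.92 and 3.82 CPM with DMSO (0.47 ± 0.08, adjusted p = 0.00137). Neither pair of groups overlapped. CDKN2C was at 210.1 ± 4.3 CPM with ML-60218 and 233 ± 10 CPM with DMSO (-0.15 ± 0.03, adjusted p = 0.0106), a call lost without ML-60218 replicate 2 (adjusted p = 0.0525). CDKN1B (-0.11 ± 0.06) and CDKN1C (0.85 ± 0.52) did not pass, and CDKN2A and CDKN2B were below the filter on low counts and were not tested. Of the 5 members tested 2 rose and 1 fell, where 8.48% of the 15327 genes tested rose and 7.05% fell. The members' median was 0.38.

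CHX gave larger changes in the same 3 genes. CDKN2D rose to 8.49, 9.06 and 8.03 CPM with CHX, against 4.0, 3.92 and 3.82 CPM with DMSO (1.12 ± 0.08, adjusted p = 2.98e-08). CDKN1A rose to 60.0, 49.5 and 54.6 CPM with CHX, against 34.3, 34.2 and 35.0 CPM with DMSO (0.67 ± 0.06, adjusted p = 7.43e-07). CDKN2C fell to 149, 142 and 152 CPM with CHX, against 237, 239 and 222 CPM with DMSO (-0.66 ± 0.03, adjusted p = 2.48e-09). With an offset for the average length of each gene's transcripts that value was -0.41 (adjusted p = 1.48e-06). CDKN1C had 1.72, 1.67 and 1.86 CPM with CHX, against 0.75, 0.053 and 1.03 CPM with DMSO (1.53 ± 0.51, adjusted p = 0.0176), and the value was 0.98 without DMSO replicate 2 and 2.15 without DMSO replicate 3. CDKN1B was at 31.2 ± 2.6 CPM with CHX and 31.02 ± 1.12 CPM with DMSO (0.01 ± 0.06). Of the 5 tested members 3 rose and 1 fell, where 33.5% of all genes rose and 32.5% fell, with a median of 0.67 over the members. The ML-60218 and CHX comparisons share the DMSO libraries.

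The lower CDKN2C level with CHX fell mostly on 1 transcript, which is described without a test because it was chosen after the values were seen. ENST00000396148, starting at chr1:50968695, had 3096, 2867 and 2883 reads with CHX, against 6140, 6776 and 5883 reads with DMSO. ENST00000371761, which starts at chr1:50969944, had 2837, 2357 and 2361 reads with CHX, against 1919, 2084 and 1745 reads with DMSO. Its share of the gene was 43.3% to 46.2% with CHX and 45.3% to 48.1% with ML-60218 and CHX, against 21.5% to 24.3% with ML-60218 alone and 22.5% to 23.3% with DMSO. In HEK293T the share ran from 26.3% to 27.5% with siE8 to 47.1% to 50.9% with the POLR3G ASO, and scramble ASO had 38.9% to 40.6%.

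**Figure D5:**
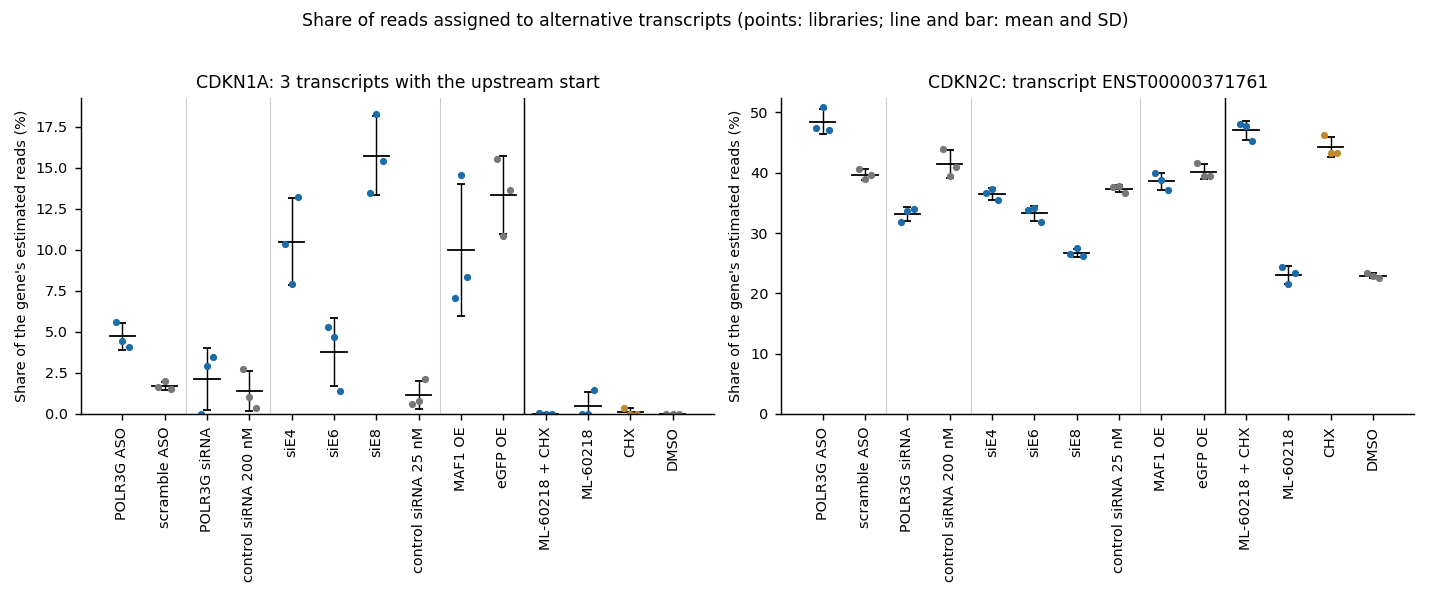
Share of a gene's estimated reads (%, y axis) assigned to the 3 CDKN1A transcripts with an upstream start (left) and to CDKN2C transcript ENST00000371761 (right) in each library (points), with group mean and SD, by group (x axis). The CDKN2C share stands at 43.3% to 48.1% in the 6 libraries with CHX and at 21.5% to 24.3% in the other 6 THP-1 libraries.

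Given on top of CHX, ML-60218 again raised CDKN1A, to 68.7, 69.8 and 72.6 CPM, against 60.0, 49.5 and 54.6 CPM with CHX alone (log2 fold change 0.36 ± 0.06, adjusted p = 0.00156). CDKN2D rose to 11.5, 11.7 and 11.9 CPM, against 8.49, 9.06 and 8.03 CPM with CHX alone (0.46 ± 0.07, adjusted p = 0.0011). CDKN2C was at 137 ± 3 CPM with both and 147 ± 5 CPM with CHX alone (-0.10 ± 0.03, adjusted p = 0.0587), called at -0.13 without CHX replicate 2 (adjusted p = 0.0178). Of the 5 members 2 rose and 0 fell, where 8.75% of genes rose and 7.75% fell, and the members' median was -0.08. The interaction of ML-60218 and CHX was called for 0 of 5 members with edgeR and with DESeq2, and 0 had an unadjusted p under 0.05, where 6.56% of genes were called. Its value was -0.02 ± 0.09 for CDKN1A and -0.02 ± 0.10 for CDKN2D.

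Among the partners in THP-1, CHX lowered CCNE2 by 3.93 ± 0.06 and CCNE1 by 2.27 ± 0.11, the E-type cyclins that CIP/KIP proteins inhibit with CDK2. Of 16 RB and E2F genes 4 rose and 10 fell with CHX, among them E2F8 (-1.97 ± 0.06) and E2F1 (-1.75 ± 0.07), while 0 rose and 4 fell with ML-60218. Of 17 activators of CDK inhibitor genes 13 rose and 2 fell with CHX, with EGR1 at 1.79 ± 0.08, and 3 rose and 1 fell with ML-60218. KDM6B, a demethylase that removes the Polycomb mark, rose with ML-60218 (0.62 ± 0.08) and with ML-60218 on top of CHX (0.81 ± 0.07). MYC fell with CHX to 36.1 CPM, against 143 CPM with DMSO, and SKP2, the F-box protein that targets p27 for degradation, fell to 7.71 CPM, against 31.2 CPM with DMSO. Of 11 ubiquitin ligase genes that act on CDK inhibitor proteins 1 rose and 6 fell with CHX, and 0 rose and 1 fell with ML-60218. The 12 monocyte markers summed to 4243 to 4550 CPM with CHX and 5881 to 6436 CPM with DMSO, 6 rising and 6 falling, and their part in the members' changes was not tested.

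Across libraries the members did not form 1 group. Over the 30 HEK293T libraries, on log2 CPM centred on each experiment's mean, the highest correlation between members was that of CDKN1B and CDKN2A (Pearson's r = 0.798), then CDKN1B and CDKN2B (0.667), and the lowest was that of CDKN1A and CDKN2C (-0.583). These are descriptions, since the libraries of a group are replicates and comparisons share controls. On the same scale the genes most like each member were TRIAP1 (0.940), UTP15 (0.929) and HAUS3 (0.917) for CDKN1B, FAHD2A (0.880), EIF4ENIF1 (0.867) and RELA (0.866) for CDKN1A, and PSMD1 (0.972), PRKD3 (0.952) and PPT1 (0.941) for CDKN2C, each over all 42 libraries. Over the 30 HEK293T libraries they were SNRPC (0.962), PDCD5 (0.955) and COMMD3 (0.955) for CDKN2A and ZNF268 (0.951), ZNF350 (0.944) and PRDM4 (0.938) for CDKN2B. Over the 12 THP-1 libraries UBE2Z (0.994), OGA (0.992) and SIPA1L1 (0.991) were most like CDKN2D, and CDKN1C was below the level required.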

How the data were processed

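Poly(A) RNA was sequenced from 42 libraries, 3 per group. Per the submitters' processing notes, bcl2fastq 2.20, Trim Galore, Salmon and DESeq2 were used with hg38, and no source used here gives other versions or the transcript annotation. The authors deposited an estimated count and a TPM value, per the file headers, for each of 194142 transcripts and each library. GENCODE 29 named 158359 of them (81.6%), and transcripts without a match, 8.06% to 9.54% of a library's 32705684 to 52568088 reads, were left out. Estimated counts of a gene's transcripts were added and the sum rounded. Salmon divides reads among similar transcripts by estimation, so transcript classes are less sure than gene sums. Each experiment was fitted by itself in edgeR 4.0.16 under R 4.3.3 (filterByExpr, TMM, quasi-likelihood F-test, Benjamini-Hochberg over all genes tested, calls at an adjusted p under 0.05), and the fit was tested on simulated data. The ASO and siRNA changes were set against each other in 1 fit over their 12 libraries. Levels are TMM-normalised CPM within an experiment, so levels set across experiments or cell lines rest on separate normalizations. Python 3.11.15, pandas 2.3.3 and matplotlib 3.10.9 made tables and figures.

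The members and gene lists were chosen with earlier results of these data known. Named beside the members are POLR3G, POLR3GL and MAF1, up to 2 called genes per list and comparison with the largest change among those with a mean of at least 5 CPM, the neighbours of CDKN2A for level, and the 3 protein-coding genes with the highest correlation to a member. The split of CDKN1A and CDKN2C by transcript was chosen after the values were seen. The labels do not say that replicates came from separate cultures, so p-values reflect only how these samples vary, which may be technical variation. Intervals and limits for counts of 0 cover counting error only. Alternatives were DESeq2 1.42.0, its size factors in edgeR, no filter on low counts, the replicate number as a block, all libraries of a cell line in 1 fit, a length offset and each library left out in turn. Amino acid sequences and CDKN2B-AS1 were not analysed here, and some results of the gene lists and the exon sequence of CDKN2A are not reported here.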

Additional observations from a re-analysis of the deposited data

Results flagged for a closer look

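The members named here drew attention because the change with the POLR3G ASO differed from the change with the POLR3G siRNA by a test of that difference (edgeR, adjusted over 17489 genes). The difference, ASO change minus siRNA change on the log2 scale, was 0.214 for CDKN1A, -0.385 for CDKN1B, -0.676 for CDKN2A, 0.354 for CDKN2B and -0.782 for CDKN2C. Among transcript classes it was -1.111 for p14ARF and 0.285 for p15INK4b. CDKN1B, CDKN2B and CDKN2C rose with both oligonucleotides and differed in size, whereas p14ARF rose with the siRNA and did not pass the test with the ASO. The oligonucleotides had separate controls, and MAF1 fell with the siRNA and was at -0.018 with the ASO. The part of that in the differences was not tested.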

How the results depend on the processing

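All values here are log2 fold changes unless named otherwise. The values that reversed had not passed the test. Without a filter on low counts CDKN2A with the POLR3G ASO was at -0.027. With a length offset CDKN2A with the ASO was at -0.02, CDKN2D with the ASO at -0.029, CDKN2D with the POLR3G siRNA at 0.028, CDKN2C with siE8 at -0.071, the ML-60218 by CHX interaction of CDKN2D at 0.012 and the ASO change minus the siRNA change of CDKN2D at -0.085. With each library left out in turn, the range with the ASO was -0.026 to 0.045 for CDKN2A and -0.016 to 0.099 for CDKN2D. With the POLR3G siRNA it was -0.359 to 0.67 for CDKN1C, -0.057 to 0.047 for CDKN2D and -0.116 to 0.013 for p16. It was -0.022 to 0.187 for p14ARF with siE6, -0.195 to 0.053 for other CDKN2A transcripts with MAF1 and -0.029 to 0.084 for CDKN1B with CHX. The interaction ranged over -0.094 to 0.048 for CDKN1A, -0.038 to 0.074 for CDKN1B and -0.081 to 0.036 for CDKN2D, and the ASO change minus the siRNA change over -0.001 to 1.012 for CDKN1C and -0.026 to 0.089 for CDKN2D. With siE8, 3 to 5 members and 2 to 4 transcript classes were called. The cause was not tested. Of all alternative values, 1308 kept their direction and side of the threshold, 44 lost a call, 32 gained one and 31 reversed. For THP-1 the fit with all libraries of the line is the one reported.

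Replicate numbers were not treated as pairing the samples, since not every pair passed a set limit. The correlation of deviations of same-numbered libraries was over 0.1 in 2 of 3 pairs of the ASO experiment and 0 of 3 of the siRNA experiment. It was over 0.1 in 4 of 18 with POLR3GL siRNAs, 0 of 3 with MAF1 and 4 of 18 in THP-1. This rule cannot show that the samples were unpaired. With the replicate number as a block, 4 members were called with the ASO (CDKN1A at -0.144 was added) and 5 with siE4 (CDKN2A at 0.17 was added), p10 with the siRNA (0.612) and p16 with siE8 (-0.211) lost their calls, and no other member or transcript class call changed. Counts near those of CDKN1C, 0 to 219 reads in a HEK293T library, limit what can be said of it.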
